A study of Mus musculus with 9 samples.

Results

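The BCL-2 family was examined in a necroptosis model through 10 named genes, of which 9 had a probe set that carried 1 gene symbol, among 22180 genes measured in that way. These were the pro-survival genes Bcl2, Bcl2l1 and Mcl1, the BH3-only genes Bcl2l11, Bbc3, Pmaip1, Bid and Bad, and the effector gene Bak1. Bax, the other effector of the 10, was not analysed here. Where a gene had several such probe sets, the brightest on average over the 9 arrays stood for it.

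RNA came from hMLKL1-181-2Fv-NIH3T3 cells, a mouse fibroblast line with a transgene for a part of human MLKL joined to Fv domains. In necroptosis the pseudokinase MLKL breaches the plasma membrane. The compound B/B draws Fv domains together. Of 3 groups with 3 arrays each, the first was control cells. The second was annexin V-positive cells sorted after B/B for 1 h, annexin V being a protein that binds phosphatidylserine on the cell surface. The third was treated and sorted in that way and then kept through 6 h of washout. Doses in the series design are 50 nM (B/B) and 3000 nM (washout, with no compound named). All 3 groups carried the same transgene. The labels do not say whether the line was 1 clone, if and how the control cells passed a sort, at which time they were taken, or whether the arrays of a group came from separate cultures. Against control, B/B, sorting and time in culture cannot be told apart, and p-values measure only the spread between these samples, which may be technical.

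BCL-2 family proteins set the threshold for mitochondrial apoptosis. Effector proteins oligomerize in the outer mitochondrial membrane and let cytochrome c out, pro-survival proteins hold the effectors and their activators in check, and BH3-only proteins are stress sensors that occupy the pro-survival proteins or activate the effectors directly. Necroptosis through MLKL kills by membrane rupture and does not need this switch. Many of these proteins are controlled after translation, by cleavage, phosphorylation or degradation, which RNA levels do not show.

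The fibroblast label was checked against its markers. Vim, at a mean log2 value of 12.93, Fn1, at 11.99, and Col1a2, at 10.33, ranked among the brightest genes, and Lum and Fap, at 3.08 and 3.25, among the dimmest. The mean of 13 fibroblast markers lay between 9.02 and 9.06 on every control and B/B 1 h array and between 8.71 and 8.73 on the washout arrays. After washout 7 of these 13 were called lower than control and 2 higher. The mean of 11 leukocyte markers was 4.71 to 4.78 in control, 4.81 to 4.91 at B/B 1 h and 4.82 to 4.85 after washout. Of these 11, 3 were called higher and 0 lower at B/B 1 h (Adgre1, Cd68 and Cd14), and 1 higher and 2 lower after washout (Cd14; Ptprc and Lyz2). The leukocyte calls made up 27.3% of their list at each time, and the fibroblast calls after washout 69.2% of theirs. Over all genes, 2.89% were called at B/B 1 h and 26.2% after washout, both against control. The pan-leukocyte gene Ptprc averaged 3.31. Means of 9 epithelial and 8 endothelial markers lay between 4.81 and 4.97 and between 4.37 and 4.57 over all arrays. None of either list was called at B/B 1 h by limma, where 1 epithelial marker was higher and 0 lower, and 2 endothelial markers higher and 1 lower, at an unadjusted p under 0.05. After washout against control Cdh1 was called lower, at -0.20, and Cdh5 higher, at 0.28, and Cdh5 was also higher than at B/B 1 h, by 0.54 (log2). The part of these lists in the results that follow was not tested. B/B 1 h replicate 1 had an array weight of 0.563, beside 1.29 and 0.923 for the other two of its group, and was the lowest of the group in 4 of the 9 members and in 39.1% of all genes. Values are log2 probe set summaries, where base 2 was inferred, and they are relative to the RNA put on the array. Fewer cells with a transcript and less of it per cell cannot be told apart. The number of arrays limits the precision.

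The results turn on Mcl1, Bcl2l1, Bak1 and Bcl2. The 250 bases before the transcription start are shown for the first 3, since their levels moved in different patterns across the groups. The sequences are from RefSeq on GRCm38.p6, 5′ to 3′ on the strand of the gene, and the start farthest upstream was taken for Bcl2l1. Capitals mark matches, on either strand, to the GC box GGGCGG, to the NF-kB pattern GGGNNNNNCC, to the AP-1 pattern TGANTCA, to the CRE TGACGTCA and to the E-box CACGTG.
Mcl1, chr3:95658471-95658720, plus strand: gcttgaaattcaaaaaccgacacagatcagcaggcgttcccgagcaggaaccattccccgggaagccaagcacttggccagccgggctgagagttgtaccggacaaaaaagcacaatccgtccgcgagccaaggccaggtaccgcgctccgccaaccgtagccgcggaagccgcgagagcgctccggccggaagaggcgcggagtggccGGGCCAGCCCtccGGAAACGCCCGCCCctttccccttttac
Bcl2l1, chr2:152831729-152831978, minus strand: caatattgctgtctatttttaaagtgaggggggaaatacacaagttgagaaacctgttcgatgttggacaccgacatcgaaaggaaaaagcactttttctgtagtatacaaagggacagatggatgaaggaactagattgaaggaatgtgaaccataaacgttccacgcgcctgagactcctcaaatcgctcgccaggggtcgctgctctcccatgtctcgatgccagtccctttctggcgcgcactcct
Bak1, chr17:27028628-27028877, minus strand: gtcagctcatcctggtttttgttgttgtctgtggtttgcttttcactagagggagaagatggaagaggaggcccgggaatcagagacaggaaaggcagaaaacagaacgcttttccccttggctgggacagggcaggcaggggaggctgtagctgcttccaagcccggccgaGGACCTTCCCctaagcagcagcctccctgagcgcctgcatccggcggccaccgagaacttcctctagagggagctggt
The Mcl1 window held 2 matches to the NF-kB pattern and 1 GC box, which overlaps the second of them. The Bak1 window held 1 match to the NF-kB pattern, and the Bcl2l1 window shown held none of the 5 patterns. Of the other two annotated Bcl2l1 starts, the window at chr2:152830718-152830967 held 2 matches to the NF-kB pattern and that at chr2:152828490-152828739 none. Of 32851 windows of this length, 45.8% held the NF-kB pattern, 32.7% the GC box, 6.75% the AP-1 pattern, 1.55% the CRE and 6.02% the E-box. A match describes the letters only. GC content was 64.4% for Mcl1, 47.6% for Bcl2l1 and 58.4% for Bak1, beside a median of 52.4% over all windows.

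Differences were tested with limma over all 22180 genes, with Benjamini-Hochberg adjustment within each comparison and an adjusted p under 0.05 as the threshold for a call. Of the 9 members, 0 were called higher and 2 lower at B/B 1 h against control, 2 higher and 1 lower after washout against control, and 2 higher and 1 lower between B/B 1 h and washout. Over all genes, 2.89% were called in the first of these comparisons (1.01% higher and 1.88% lower), 26.2% in the second (14.5% higher and 11.7% lower) and 28.6% in the third (16.6% higher and 12.0% lower). The shares of members called, 22.2%, 33.3% and 33.3%, rest on 2, 3 and 3 genes. The median of the absolute log2 difference was 0.13, 0.15 and 0.11 over the members and 0.073, 0.094 and 0.11 over all genes. The first of these comparisons sets annexin V-positive cells after 1 h of B/B against control, and the second sets cells after washout against control. The third sets the washout samples against the B/B 1 h samples, which are different samples. There, washout and the added 6 h in culture cannot be told apart. No group of treated annexin V-negative cells was measured, so no difference can be tied to phosphatidylserine exposure. The first and second share the control arrays, and the third shares an array group with each of them.

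**Figure D1:**
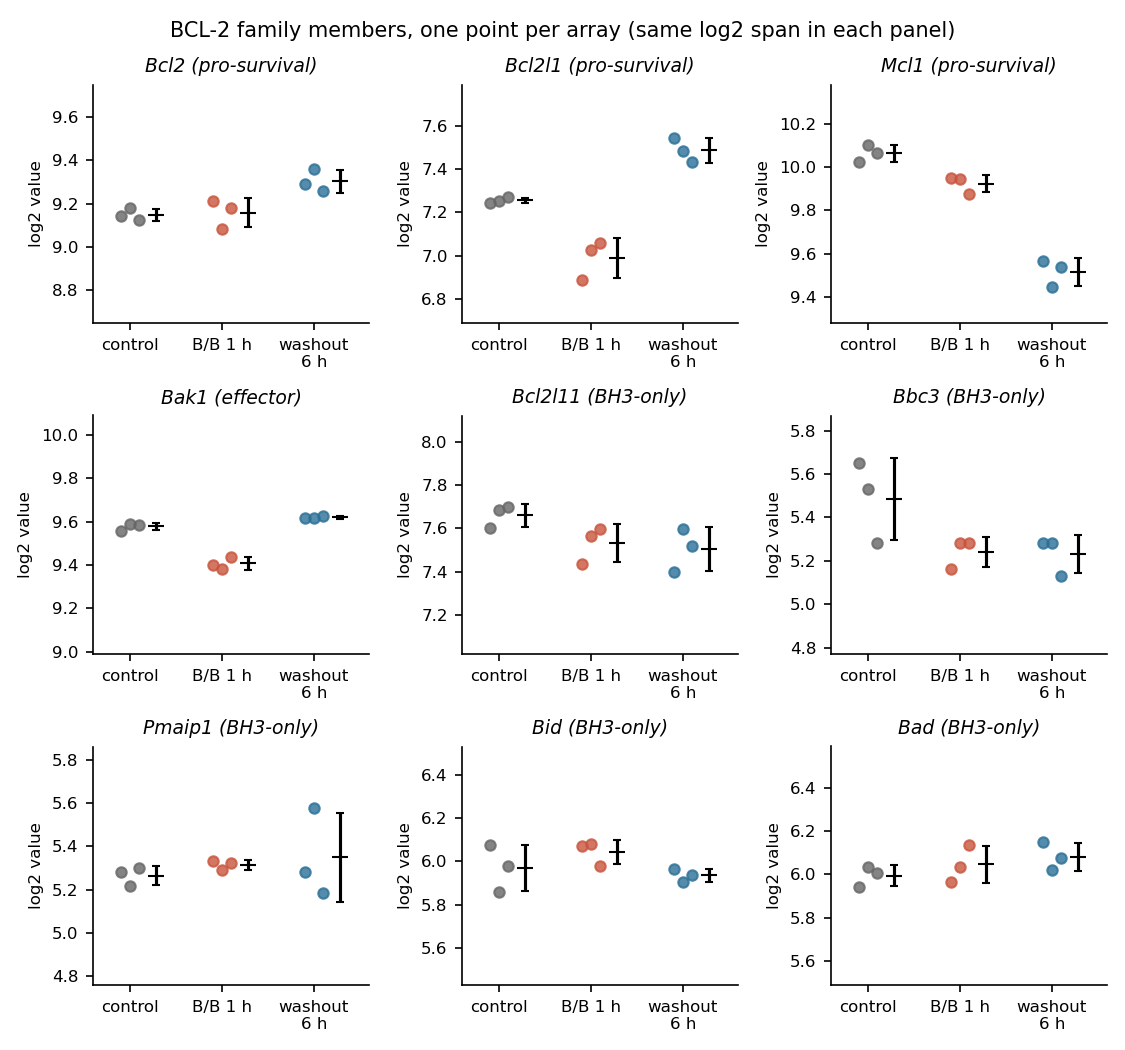
Log2 value of each of the 9 members on each array, by group, with the mean and SD of 3 arrays in black. Every panel has the same width in log2 but is centred on the mean of its own gene, so heights do not compare between panels. Mcl1 steps down to between 9.44 and 9.57 after washout, Bcl2l1 and Bak1 dip at B/B 1 h, and none of the 5 BH3-only genes passed the threshold.

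Among the pro-survival genes, Mcl1 fell after washout. Mcl1 encodes a short-lived protein that binds BAK and BH3-only proteins and whose messenger RNA also turns over fast. It read 10.02, 10.10 and 10.07 in control, 9.95, 9.94 and 9.88 at B/B 1 h, and 9.57, 9.44 and 9.54 after washout. The 3 groups did not overlap and were ordered control, B/B 1 h, washout from high to low. The washout value lay 0.55 ± 0.048 (log2, SE) below control, a 1.46-fold difference (limma adjusted p 2.71e-05), and Mcl1 dropped by 0.41 ± 0.048 between B/B 1 h and washout (adjusted p 0.000147). The step from control to B/B 1 h, -0.14 with a 95% interval of -0.25 to -0.03, did not pass the threshold (adjusted p 0.163). A second Mcl1 probe set, much dimmer, read 4.59, 4.45 and 4.28 as group means, and its difference of -0.31 between washout and control was not called among 23521 probe sets tested (limma adjusted p 0.173). With both probe sets averaged, Mcl1 stood at -0.43 against control after washout (adjusted p 0.00133).

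Bcl2l1 changed in opposite directions at the 2 times. It encodes BCL-XL, a long-lived pro-survival protein, and a splice form with the opposite activity that these summaries do not separate. Its values were 7.25, 7.25 and 7.27 in control, 6.89, 7.03 and 7.06 at B/B 1 h, and 7.54, 7.48 and 7.43 after washout. The 3 groups did not overlap, with B/B 1 h lowest and washout highest. Bcl2l1 fell by 0.26 ± 0.054 (log2, SE; 1.20-fold; limma adjusted p 0.0351) at B/B 1 h and stood 0.23 ± 0.054 above control after washout (1.17-fold; adjusted p 0.0102). Between the 2 times it rose by 0.50 ± 0.054, a 1.41-fold difference (adjusted p 8.97e-05). The fall at B/B 1 h was close to the threshold. It was -0.20 (adjusted p 0.0837) after quantile normalization and -0.26 (0.0844) with only the 2 groups in the fit. Without control replicates 1, 2 or 3 the adjusted p was 0.0894, 0.0900 and 0.117. Without B/B 1 h replicates 1 or 2, or washout replicate 2, it was 0.0766, 0.0689 and 0.0593. Without B/B 1 h replicate 1, the lowest of its group, the difference was -0.21.

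The opposed movement of Mcl1 and Bcl2l1 after washout can be read within each array as the Bcl2l1 value minus the Mcl1 value. Only its shift between groups has a meaning, since levels of different probe sets cannot be compared. This quantity lay between -2.85 and -2.78 in control, between -3.06 and -2.82 at B/B 1 h, and between -2.11 and -1.96 after washout. Its group mean was 0.78 higher after washout than in control and 0.13 lower at B/B 1 h (log2). The pair was chosen after its values were seen, and no test was made of it.

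Bcl2, the founding pro-survival gene of the family, had the narrowest range of group means of the 3, at 0.15 (log2). It read 9.15, 9.18 and 9.12 in control, 9.21, 9.08 and 9.18 at B/B 1 h, and 9.29, 9.36 and 9.26 after washout. The control and B/B 1 h values overlapped (0.01, 95% interval -0.10 to 0.12), and every washout array lay above every other array. The rise of 0.15 ± 0.049 (log2, SE; 1.11-fold) after washout against control had a limma adjusted p of 0.0454, and that of 0.14 from B/B 1 h had one of 0.0543. The call against control was lost after quantile normalization (0.0563), with array medians centred (0.0811) and with both Bcl2 probe sets averaged (0.232). It was also lost without control replicates 1, 2 or 3 (0.106, 0.0691 and 0.127), without B/B 1 h replicate 3 (0.0592), and without washout replicates 1, 2 or 3 (0.0917, 0.151 and 0.0516). The second Bcl2 probe set lay between 3.11 and 3.60 on all arrays and was not called in any comparison.

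Bak1, which encodes the effector BAK that sits in the outer mitochondrial membrane, dipped at B/B 1 h and stood within 0.04 (log2) of control after washout. Its values were 9.56, 9.59 and 9.58 in control, 9.40, 9.38 and 9.44 at B/B 1 h, and 9.62, 9.62 and 9.63 after washout. The B/B 1 h arrays lay below all others, and the washout arrays lay just above control, with an SD of 0.0056. Bak1 fell by 0.17 ± 0.038 (log2, SE; 1.13-fold; limma adjusted p 0.0475) at B/B 1 h and rose by 0.21 ± 0.038 from there to washout (1.16-fold; adjusted p 0.00193). Washout and control differed by 0.04, with a 95% interval of -0.04 to 0.13 (adjusted p 0.521). The fall at B/B 1 h kept its direction under each of the 17 alternatives tried and its call under 6. Its adjusted p was 0.0814 after quantile normalization and 0.113 with only the 2 groups in the fit. Without control replicates 1, 2 or 3 it was 0.0956, 0.124 and 0.136, and without B/B 1 h replicates 1, 2 or 3 it was 0.107, 0.122 and 0.0558. Without washout replicates 1, 2 or 3, which enter only through the estimate of spread, it was 0.0774, 0.0741 and 0.0726.

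**Figure D2:**
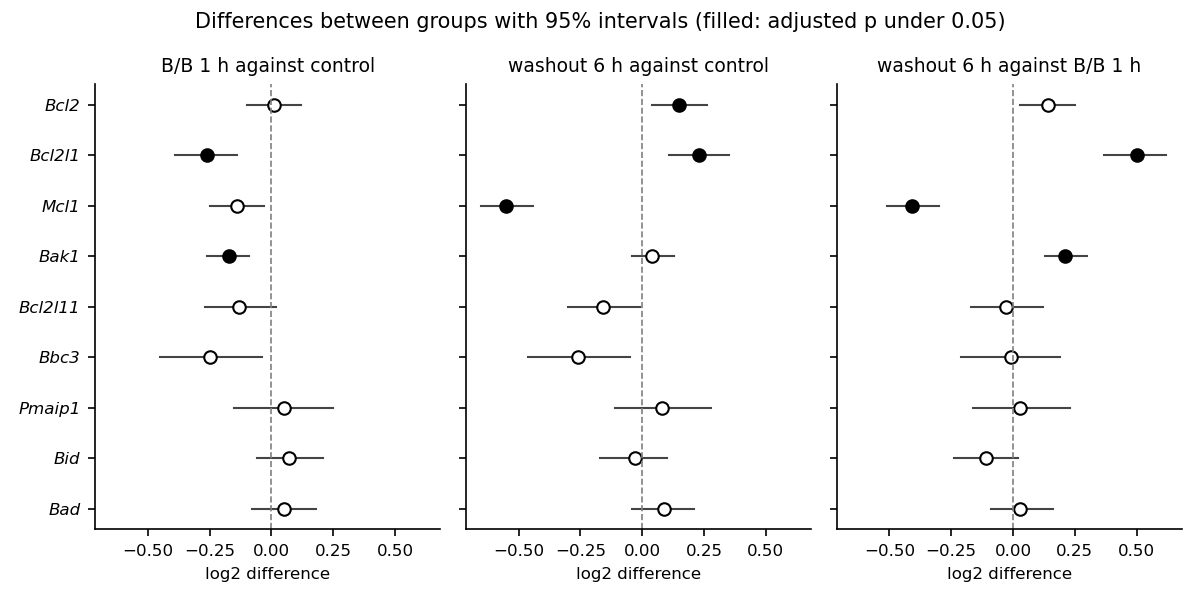
Log2 difference of each member in the 3 comparisons, with 95% intervals from the limma fit; filled points passed an adjusted p under 0.05. Mcl1 reaches -0.55 after washout, Bcl2l1 goes from -0.26 to 0.23 against control, and the 5 BH3-only genes have open points throughout.

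None of the 5 BH3-only genes passed the threshold in any of the 3 comparisons by limma. At an unadjusted p under 0.05, Bbc3 was lower than control at both times and Bcl2l11 lower after washout. Bcl2l11 encodes BIM, an activator of the effectors that growth factor loss induces in fibroblasts. It read 7.60, 7.68 and 7.70 in control, 7.43, 7.57 and 7.60 at B/B 1 h, and 7.40, 7.60 and 7.52 after washout. The highest value of each treated group was just under the lowest control value. The differences from control were -0.13 (95% interval -0.27 to 0.02; limma adjusted p 0.328) and -0.16 (-0.30 to -0.01; adjusted p 0.119), neither of which was called. Quantile normalization gave -0.07 at B/B 1 h and -0.20 after washout, the latter called (adjusted p 0.0197). The difference at B/B 1 h was -0.08 without B/B 1 h replicate 1, and that after washout was -0.10 (adjusted p 0.346) without washout replicate 1.

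Bbc3 and Pmaip1, which encode PUMA and NOXA, are BH3-only genes that p53 switches on after DNA damage. Bbc3 read 5.65, 5.53 and 5.28 in control, 5.16, 5.28 and 5.28 at B/B 1 h, and 5.28, 5.28 and 5.13 after washout. The same value, identical to 5 decimals, stood on 5 of the 9 arrays, which also held for 5 or more arrays in 5.22% of all genes, so that its spread between arrays is not that of a continuous measure. Its differences from control were -0.25 (limma adjusted p 0.186) and -0.26 (adjusted p 0.0655), and the groups overlapped. Without control replicate 1, the highest array, they were -0.16 and -0.17 (adjusted p 0.383 and 0.210), and without control replicate 3 they were -0.35 and -0.36 (adjusted p 0.0583 and 0.00602), the last of which was called. With the dimmest 30% of genes left out the difference after washout was called at -0.26 (adjusted p 0.0467).

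Pmaip1 read 5.28, 5.21 and 5.30 in control, 5.33, 5.29 and 5.32 at B/B 1 h, and 5.28, 5.58 and 5.18 after washout. Washout replicate 2 lay above all other arrays and the other two washout arrays fell within or below the control range. Its difference after washout against control was 0.08 (95% interval -0.11 to 0.28; limma adjusted p 0.578), and -0.03 without that array. Mean values of Bbc3 and Pmaip1, at 5.32 and 5.31, stood near the middle of all genes, at the 51.8 and 51.7 percentiles. No detection calls were used, so that signal was not told apart from background there.

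Bid and Bad are BH3-only genes whose proteins are switched on by caspase-8 cleavage and by dephosphorylation, respectively. Bid read 6.07, 5.86 and 5.98 in control, 6.07, 6.08 and 5.98 at B/B 1 h, and 5.97, 5.90 and 5.94 after washout. Control values spanned those of washout, and the washout arrays lay just below those of B/B 1 h (-0.11, 95% interval -0.24 to 0.02; limma adjusted p 0.223). Bad read 5.94, 6.04 and 6.01 in control, 5.97, 6.04 and 6.14 at B/B 1 h, and 6.15, 6.02 and 6.08 after washout. Its groups overlapped in each comparison, with differences of 0.05 (95% interval -0.08 to 0.18) and 0.09 (-0.04 to 0.21) from control. A brighter probe set that carries the symbols of Gpr137 and Bad together had group means of 7.20, 7.05 and 7.19 and was not called among 1814 probe sets with several symbols. Over the 3 comparisons, the intervals leave room for differences up to 0.24 in size (log2) for Bid and up to 0.21 for Bad.

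**Figure D3:**
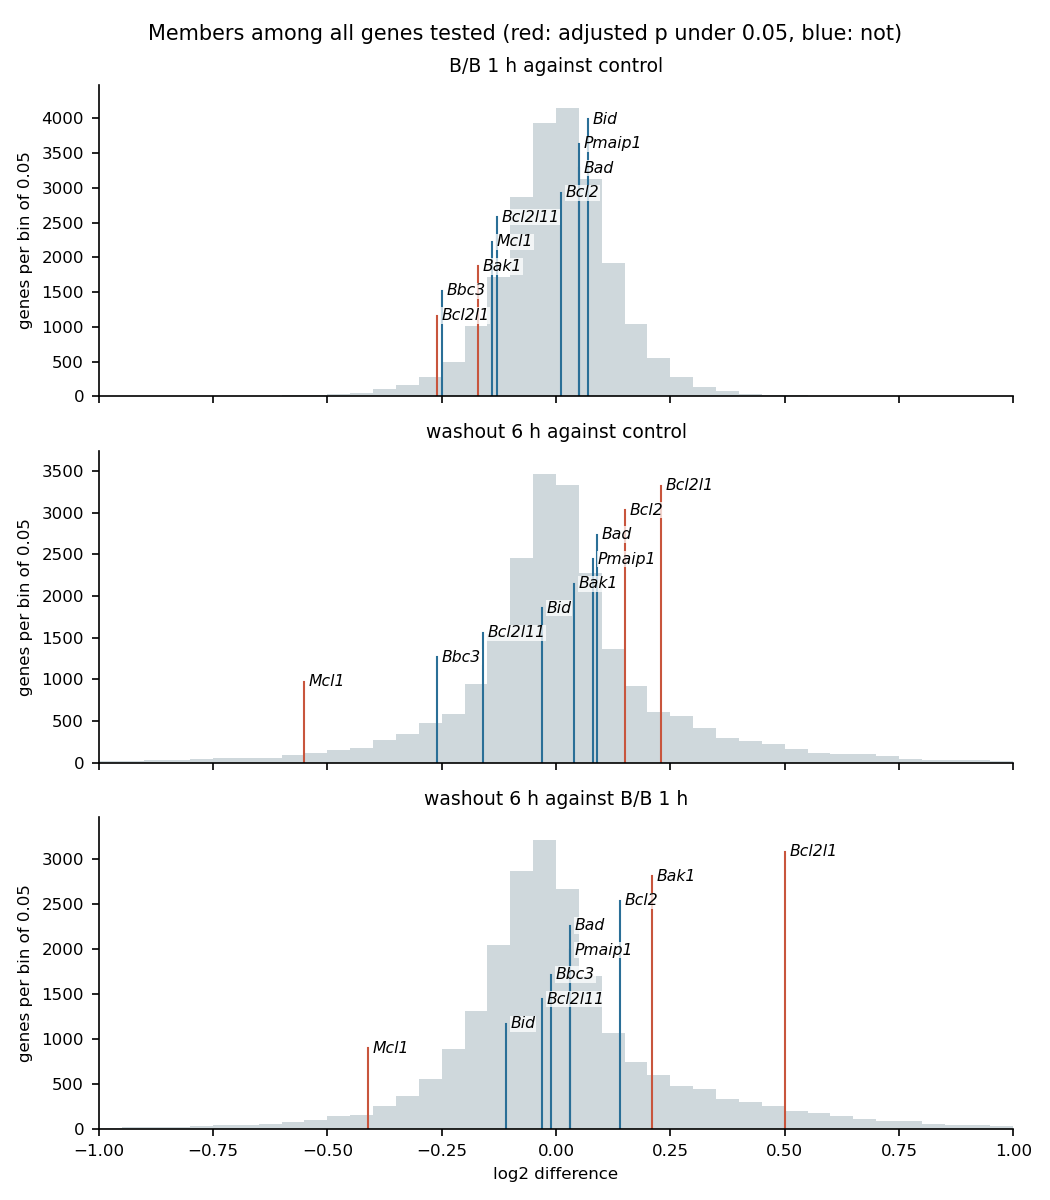
Number of genes per bin of 0.05 in log2 difference for all 22180 genes, from -1 to 1, with the members drawn as lines whose height only separates the names; red lines passed an adjusted p under 0.05. Mcl1 after washout and Bcl2l1 from B/B 1 h to washout lie in the tails. At B/B 1 h against control so do Bcl2l1, which was called, and Bbc3, which was not.

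Set among all genes by the size of the difference, Bcl2l1 at B/B 1 h was at the 94.7 percentile and Bbc3 at the 93.6 percentile. After washout Mcl1 was at the 94.4 percentile of differences from control and Bcl2l1 at the 77.0 percentile. Bak1 after washout was at the 25.9 percentile. In the comparison of washout with B/B 1 h, Bcl2l1 and Mcl1 lay at the 92.0 and 88.5 percentiles. The 3 groups of a member were fully apart in some comparisons without a call. In all, 4 of 9 members had non-overlapping groups at B/B 1 h against control, 5 after washout against control and 5 between the 2 times, beside 21.3%, 38.0% and 39.6% of all genes.

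The search for genes that followed a member most closely over the 9 arrays left out other members and genes with predicted or provisional names. Among the rest, the closest were found by the mean absolute difference after each gene was centred on its own mean. For Mcl1 these were Dnajc9, Sparc and Stk17b, at 0.029, 0.030 and 0.033 (log2), and each correlated with Mcl1 at 0.987 over arrays that share the 3 group means. Dnajc9 is a histone co-chaperone gene, Sparc encodes a matrix glycoprotein of fibroblasts and Stk17b a kinase related to death-associated protein kinases. They stood at -0.54, -0.51 and -0.50 against control after washout. For Bcl2l1 they were Cbll1, an E3 ligase gene, Lrrc1 and Cdk8, a kinase of the Mediator complex, at 0.034, 0.034 and 0.035, with differences of -0.27, -0.23 and -0.22 at B/B 1 h and 0.29, 0.24 and 0.22 after washout. For Bbc3 the nearest were Vmn1r167, Col28a1 and Wdpcp, at 0.048, 0.054 and 0.055, of which Vmn1r167 and Col28a1 are dim, with control means of 2.53 and 3.87.

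Among other relatives of the family, Bnip3 was the one called against control. Of 12 measured genes out of 16 listed, 0 were called at B/B 1 h by limma, with 0 higher and 1 lower at an unadjusted p under 0.05. That was Bok, an effector relative, at -0.19 (log2; adjusted p 0.179). After washout against control 1 was called lower, Bnip3, a BH3-like mitophagy receptor gene that hypoxia induces, which fell by 1.23 ± 0.063 (log2, SE; adjusted p 1.22e-06). From B/B 1 h to washout Bnip3 dropped by 1.27 and Bok rose by 0.28 (adjusted p 0.0121), and no other relative was called. Called relatives made up 0% of the list at B/B 1 h, 8.33% after washout against control and 16.7% between the 2 times. The shares over all genes were 2.89%, 26.2% and 28.6%. Bcl2l2, which encodes the pro-survival protein BCL-w, and Bmf, a BH3-only gene, were chosen after their values were seen and stood at 0.07 and -0.08 against control after washout, neither called.

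Genes downstream of the mitochondrial step were called after washout in both directions. Of 15 measured genes for the apoptosome, mitochondrial release factors and caspases, out of 17 listed, 0 were called at B/B 1 h by limma (0 higher and 4 lower at an unadjusted p under 0.05). After washout 5 were higher than control and 3 lower. Casp6, an executioner caspase gene, rose by 0.68 ± 0.072 (log2, SE; adjusted p 8.21e-05) and Casp2, an initiator of the caspase family, by 0.49 ± 0.051 (adjusted p 7.03e-05). The other 3 higher genes, chosen after their values were seen, were Casp9 at 0.44, Diablo, which encodes a released antagonist of IAP proteins, at 0.27 and Apaf1, the apoptosome scaffold, at 0.26. Htra2, a mitochondrial serine protease gene, fell by 0.48 ± 0.042 (log2, SE; adjusted p 2.79e-05), and Aifm1 and Parl, also chosen after their values were seen, by 0.31 and 0.20. Between B/B 1 h and washout 5 were higher and 2 lower, with Casp6 at 0.67, Casp2 at 0.65 and Casp9 at 0.54. Calls made up 0% of the list at B/B 1 h, 53.3% after washout against control and 46.7% between the 2 times. The shares over all genes were 2.89%, 26.2% and 28.6%. The median log2 difference of the list was 0.087 after washout against control, where that of all genes was 0.00057. At B/B 1 h the gene with the lowest p was Parl, at -0.18 (adjusted p 0.0875), which was called with a variance trend (adjusted p 0.0341).

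Of 21 measured regulators of the family out of 22 listed, 3 were called higher and 0 lower at B/B 1 h. Some alternatives gave 3 higher and 1 lower there, among them centred medians, a variance trend and only the 2 groups compared. Jun, an AP-1 subunit, rose by 0.87 ± 0.042 (log2, SE; limma adjusted p 5.62e-06), Ddit3, the stress factor CHOP that induces Bcl2l11 and represses Bcl2 in other settings, by 0.59 ± 0.081 (adjusted p 0.00479), and Bag3, a co-chaperone gene, by 0.24 ± 0.036 (adjusted p 0.00756). After washout 4 were higher and 6 lower than control. Jun stood at -0.70 and Ddit3 at -0.42, below control, while Trib3, a pseudokinase gene that CHOP induces, stood at 0.66. The other 3 higher genes were the deubiquitinase gene Usp9x at 0.29 and the ubiquitin ligase genes Fbxw7 at 0.21 and Btrc at 0.20, and the other 4 lower genes were E2f1 at -0.33, Bag3 at -0.32, Foxo3 at -0.27 and Ywhae at -0.19. The ubiquitin ligase genes Huwe1 and Marchf5 stood at 0.01 and 0.13 and were not called. These 9 genes were named after their values were seen. From B/B 1 h to washout 5 were higher and 6 lower, with Jun at -1.56, Trib3 at 1.04 and Ddit3 at -1.02. Trib3 had stood at -0.38 against control at B/B 1 h, not called (limma adjusted p 0.0564). Called regulators made up 14.3% of the list at B/B 1 h, 47.6% after washout against control and 52.4% between the 2 times. The shares over all genes were 2.89%, 26.2% and 28.6%. Vdac2, which encodes the channel that holds BAK at mitochondria and was also chosen after its values were seen, stood at 0.03 and 0.01 against control at the 2 times.

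**Figure D4:**
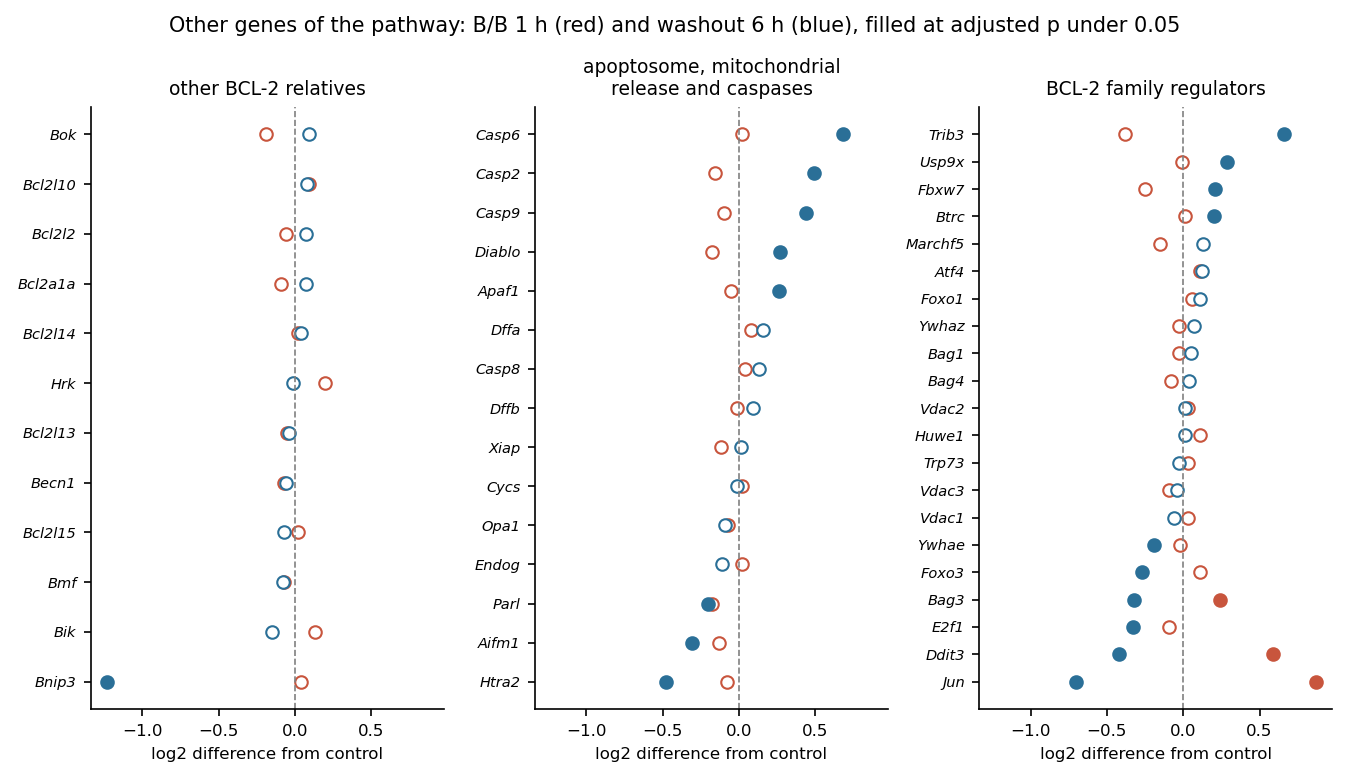
Log2 difference from control at B/B 1 h (red) and after washout (blue) for the other genes of the pathway in 3 lists, ordered by the washout value; filled points passed an adjusted p under 0.05. Bnip3 stands alone among the relatives at -1.23, and Jun, Ddit3 and Bag3 lie above 0 at B/B 1 h and below 0 after washout.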

How the data were processed

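Total RNA was extracted with Trizol and hybridised as biotinylated cRNA to 1-colour Affymetrix arrays, per the labels' protocols. The authors used Partek 6.6, per the submitters' processing notes. The deposited values are log2 probe set summaries. Array medians ran from 4.60 to 4.68 and array maxima from 13.18 to 13.22. That the authors had normalized between arrays was inferred from such near-equal values and is not stated. The method of summary and normalization, which could compress differences, is not given in the sources used here.

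Of 41345 probe sets, 23521 carried 1 symbol, 1814 several and 16010 none in the annotation supplied with the array. A gene table of GRCm38.p6 gave current symbols and changed 0. Groups were taken from the treatment labels and fitted as 3 means in 1 model, with R 4.3.3 and limma 3.58.1, which left 6 residual degrees of freedom. Across genes, arrays of a group correlated at 0.998 to 0.999. The code was tested on simulated data. Members and lists were chosen with earlier results of these data known. Named genes were all members and up to 3 called genes per list and comparison by size of the difference. Where none was called, the gene with the lowest p was named. For each of the 3 members with the widest range of group means, the 3 nearest genes were also named. Members and genes with predicted or provisional names were left out of that search. Alternatives were quantile normalization, centred medians, the dimmest 30% left out, averaged probe sets, a variance trend, only 2 groups, array weights, each array left out and, chosen after seeing the data, every probe set on its own. The alternative planned for linear values was not run, since the values were already logs.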

Additional observations from a re-analysis of the deposited data

How the results depend on the processing

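Under each of the 17 alternatives, Mcl1 kept its call after washout against control (-0.57 to -0.43, log2) and from B/B 1 h to washout (-0.43 to -0.29). The same held for Bcl2l1 after washout (0.18 to 0.26) and from B/B 1 h (0.37 to 0.53), and for Bak1 from B/B 1 h (0.19 to 0.24). The calls of Bcl2l1 and Bak1 at B/B 1 h and of Bcl2 after washout were lost under 8, 11 and 10 alternatives. The count of members called at B/B 1 h, 2, was 0 with quantile normalization and with only the 2 groups compared, and 0 to 1 with 1 array left out. Over all genes, 642 were called at B/B 1 h, 34.9% of them higher. This was 975 with array medians centred (16.7% higher), 1228 with a variance trend, 359 with only the 2 groups compared, and 323 to 691 with 1 array left out. The causes of these differences were not tested.

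Differences that changed sign were uncalled and near 0. At B/B 1 h, Bcl2 went from 0.01 to -0.04 with array medians centred and -0.01 with array weights, and Pmaip1 from 0.05 to 0.00 with quantile normalization or centred medians. From B/B 1 h to washout, Bad went from 0.03 to -0.03 with quantile normalization, Bbc3 from -0.01 to 0.02 with it or with centred medians, and Bcl2l11 from -0.03 to 0.01 with centred medians. With 1 array left out, Bcl2 ran from -0.02 to 0.05 at B/B 1 h. From B/B 1 h to washout, Bad ran from -0.01 to 0.08, Bbc3 from -0.05 to 0.04, Bcl2l11 from -0.08 to 0.03 and Pmaip1 from -0.08 to 0.12. After washout against control, Bid ran from -0.09 to 0.02 and Pmaip1 from -0.03 to 0.17. Bcl2 from B/B 1 h to washout was called under 5 alternatives, among them centred medians (0.18, adjusted p 0.0230). No paired analysis was possible because the labels give no replicate numbers that groups share. Without a reading of signal over background, the dim members limit what these arrays can show.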
